A study of Mus musculus with 82 samples.

Results

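The Abca lipid transporters are the A subfamily of the ATP-binding cassette (ABC) proteins, and 6 of the 21936 probes on the arrays carried a platform symbol of 5 of them: Abca1, ABCA1, Abca2, Abca4, Abca5 and Abca6. Abca1 and ABCA1 are kept apart because they are different probes, the probe written Abca1 carrying a mouse RefSeq accession and the probe written ABCA1 a human one. Probe sequences were not given, so whether the ABCA1 probe has a mouse or a human sequence is not known. All 6 probes had a value on all 82 arrays. Abca1 lies on mouse chromosome 4, Abca2 on chromosome 2, Abca4 on chromosome 3, and Abca5 and Abca6 next to each other on chromosome 11, in a row of related genes (Abca8b, Abca8a, Abca9, Abca6, Abca5) of which only these last ones had a named probe.

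ABC proteins of the A subfamily are large membrane proteins that use ATP to move lipids across or out of membranes. ABCA1 passes cholesterol and phospholipid from cells to apolipoprotein A-I, the first step in making high-density lipoprotein (HDL), and the liver is a main source of HDL. Its gene is switched on by the oxysterol-sensing LXR nuclear receptors, which bind DNA together with RXR. Abca2 acts in lysosomes and is best known from oligodendrocytes, Abca4 clears retinoids from photoreceptor discs, Abca5 is a lysosomal protein made in many tissues, and the substrate of Abca6 is not settled.

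The study measured liver RNA of BXD mice, recombinant inbred strains that each carry a fixed mosaic of the C57BL6/J (B6) and DBA2/J (D2) genomes, and of both parents, on two-colour arrays that give 1 ratio per probe. There were 72 arrays of BXD liver (40 female, 32 male, 17 strains) and 2 of B6 male liver, all against 1 mix of RNA from day 17.5 B6 embryos, 6 arrays of B6 liver against D2 liver (3 per sex) and 2 further arrays of B6 against D2 liver RNA labelled enriched, with no word on what was enriched. The series description gives mice of 10 to 20 weeks, 3 unfasted males per strain and 18 BXD strains, whereas the array labels hold both sexes and 17 strains. The labels do not say whether 1 array used 1 mouse or a pool, so the spread between samples may be partly technical. The mix was 1 RNA of 1 parental strain, taken from embryos and not from embryonic liver, so a liver ratio sets adult liver against all embryonic tissues at once.

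Liver RNA was in channel 1 on 41 BXD arrays and in channel 2 on 31, and 13 strains had both orientations in both sexes. BXD8, BXD9, BXD14 and BXD27 had liver in channel 1 only. Adult hepatocyte markers (13 probes) had a higher median than embryonic markers (12 probes) on 74 of 74 arrays against the mix, and array medians lay between -0.00 and 0.12 (log2). The Y-linked gene Eif2s3y was higher in females than in males in BXD8 and BXD27, against the labels, and Uty in BXD18, BXD27 and BXD28, while the X-linked Eif2s3x and Ddx3x were higher in females in 17 of 17 strains. One BXD11 female array was titled as a dye swap but listed liver first. Read by its channels, it correlated at 0.835 to 0.846 with the other BXD11 female arrays across probes. Some sex results are given with and without BXD8 and BXD27, and some results with and without this BXD11 array. BXD18 and BXD28 were left out only singly, as each strain was in turn.

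The promoter of Abca1 is shown because it holds a pair of receptor half-site cores in the spelling that was searched. It is the sequence of the 250 bases before the RefSeq start (GRCm38.p6, chr4:53159896-53160145, minus strand), printed 5′ to 3′. The capitals mark, from left to right, an E-box (CACGTG), a pair of receptor half-site cores (GGTTA and GGTCA with 5 bases between them, read on the other strand), and TATAAA.

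Abca1 promoter: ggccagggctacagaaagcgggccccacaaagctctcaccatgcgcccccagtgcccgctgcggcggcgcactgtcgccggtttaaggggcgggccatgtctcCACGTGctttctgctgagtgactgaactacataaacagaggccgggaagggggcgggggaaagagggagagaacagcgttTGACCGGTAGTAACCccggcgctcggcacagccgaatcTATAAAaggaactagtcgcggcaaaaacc

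The paired half-sites, of the kind that LXR and RXR bind, lay between the E-box and TATAAA, and on the other strand read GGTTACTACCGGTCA. Of 32851 mouse promoters searched on both strands from 250 bases before to 50 after the start, 16 (0.0487%) held this pair of cores at this spacing, 7.15% held CACGTG, 35.7% held GGGCGG (the GC box) and 13.6% held TATAAA. These motifs do not overlap in the Abca1 window. The pair was searched in 1 fixed spelling, which the Abca1 window has, so its match there gives no test. The share of 0.0487% leaves out other spellings of such sites. Entries for 4 of the 5 mouse genes matched. The windows of Abca2 and Abca5 held 1 and 5 copies of GGGCGG and that of Abca4 held 1 TATAAA, and none of these held the paired cores or CACGTG. A match in letters is a description and not a measured site.

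In adult liver against the embryo mix, Abca6 was by far the most liver-rich of the 6 probes. It averaged 2.52 ± 0.16 (log2 ratio, SD, n = 13 strains), a 5.74-fold higher level in liver, and ranked 210 of 21936 probes from the top. ABCA1 and Abca2 were moderately higher in liver (1.68-fold and 1.42-fold), Abca4 and Abca5 were slightly lower in liver, and Abca1 did not pass the test in the 13 strains. A probe was called when the adjusted p of limma's test of strain means against 0 (Benjamini-Hochberg over all probes) was under 0.05 and the log2 ratio was at least 1 in size, and 1 of the 6 probes was called, Abca6. Over all probes 13.9% were called, 4.69% as higher in liver and 9.17% as lower. By the adjusted p alone, 5 of the 6 probes passed, against 83.9% of all probes, so passing it sets none of them apart. Whether a difference reflects more cells of a type or more RNA per cell cannot be told apart in these bulk samples.

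For Abca6, the strain means ran from 2.21 in BXD12 through a median of 2.56 to 2.72 in BXD2 (adjusted p = 1.65e-17, limma). All 13 strains were high, and their whole range was small beside the distance to 0. The B6 male pair of arrays read 2.64 with liver in channel 1 and 2.60 with liver in channel 2, inside the range of the strains.

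For ABCA1, the strain means ran from 0.32 in BXD5 through a median of 0.71 to 1.24 in BXD16, with a mean of 0.75 ± 0.24 (SD, n = 13) and an adjusted p of 1.38e-08 (limma). All 13 strains lay above 0. For Abca1, they ran from -0.17 in BXD12 through a median of 0.08 to 0.43 in BXD11, with a mean of 0.11 ± 0.22 (SD, n = 13). Of 13 strains 7 lay above 0, and the adjusted p was 0.0752 (limma). The adjusted p of Abca1 turned with the strains and arrays used: it passed with all 17 strains (0.16, adjusted p = 0.00808, 11 of 17 above 0), in males only (0.18, adjusted p = 0.0170), with liver in channel 2 only (0.18, adjusted p = 0.0155) and without BXD5, BXD12 or BXD31 in turn, and was 0.105 without the BXD11 array of contradictory title (ratio 0.09). Within each strain the ABCA1 probe thus had a higher liver ratio than the Abca1 probe, by 0.64 ± 0.16 (SD), lowest 0.39 and highest 0.88, in 13 of 13 strains. The B6 male pair of arrays averaged 0.86 for ABCA1 and 0.37 for Abca1.

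For Abca2, the strain means ran from 0.16 in BXD18 through a median of 0.47 to 0.81 in BXD15, with a mean of 0.50 ± 0.19 (SD, n = 13) and an adjusted p of 1.41e-07 (limma). All 13 strains lay above 0. The size of this ratio moved with the channel that held liver: over 31 pairs of arrays it averaged 0.80 ± 0.25 (SD) with liver in channel 2 and 0.23 ± 0.35 with liver in channel 1, and was higher in channel 2 in 28 pairs. That gap of 0.57 exceeded those of 84.7% of all probes, whose median was 0.21. The other member probes had smaller gaps (channel 2 minus channel 1): 0.26 for Abca4, 0.16 for Abca1, 0.13 for Abca5, -0.19 for Abca6 and -0.24 for ABCA1. For Abca2, the B6 male arrays gave 0.50 with liver in channel 2 and -0.03 with liver in channel 1.

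For Abca4, the strain means ran from -0.50 in BXD2 through a median of -0.33 to -0.16 in BXD18, with a mean of -0.33 ± 0.11 (SD, n = 13) and an adjusted p of 6.00e-08 (limma). All 13 strains lay below 0, a level 1.26-fold higher in the embryo mix. Over 31 pairs of arrays Abca4 averaged -0.20 with liver in channel 2 and -0.46 with liver in channel 1, and was higher in channel 2 in 25 pairs. Photoreceptor and retina markers, in whose cells Abca4 is known to work, had ratios between -0.20 (Rlbp1) and 0.57 (Rpe65) over 7 probes, with a median of 0.17 and none at the size that a call needs. For Abca5, the strain means ran from -0.31 in BXD2 through a median of -0.09 to 0.00 in BXD19, with a mean of -0.13 ± 0.09 (SD, n = 13) and an adjusted p of 4.22e-04 (limma). Abca5 no longer passed with all 17 strains (-0.05, adjusted p = 0.290, 5 of 17 above 0) or with liver in channel 1 only (-0.08, adjusted p = 0.120). The B6 male pair lay at -0.27 for Abca4 and -0.09 for Abca5, but its arrays were far apart, at -0.55 and 0.01 for Abca4 and at -0.28 and 0.10 for Abca5.

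**Figure D1:**
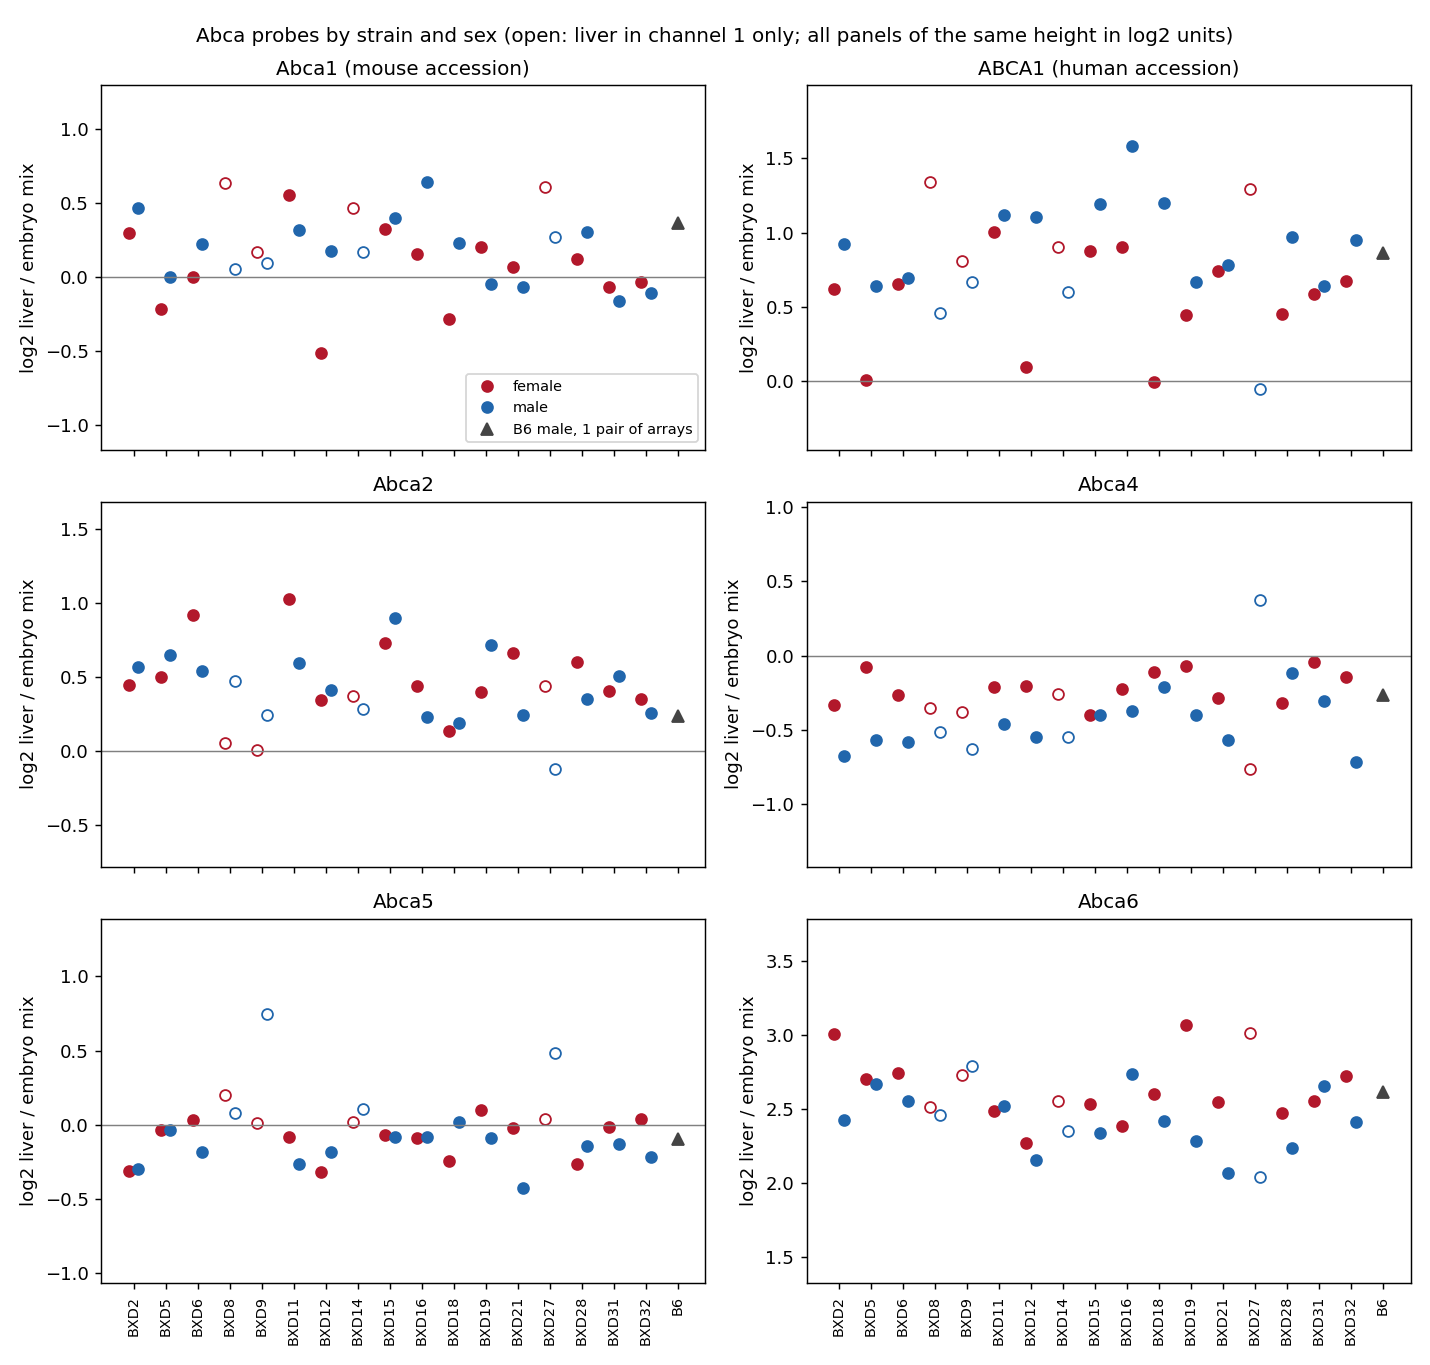
Log2 ratio of liver over the embryo mix (y axis) for the 6 probes in each BXD strain (x axis), females in red and males in blue, with the mean of the 1 pair of B6 male arrays as a triangle; open points are strains with liver in channel 1 only, and every panel has the same height in log2 units. Abca6 lies above 2 in every strain and sex, Abca4 lies below 0 except in BXD27 males, and Abca1 straddles 0.

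Other genes of lipid transport were compared from lists, given here as counts of called probes beside a median of 0.07 for all probes. Of 4 probes for cholesterol efflux and HDL, 2 were called as higher in liver, Apoa2 (an HDL apolipoprotein, 3.38) and Lcat (which esterifies HDL cholesterol, 1.96), while Lipg (endothelial lipase, 0.13) and Scarb1 (the HDL receptor SR-BI, -0.02) were not, and the median was 1.04. Of 9 nuclear receptors of sterols and partners, 4 were called as higher: Nr1h3 (LXR alpha, 2.33), Nr1h4 (the bile acid receptor FXR, 1.90), Nr1i3 (CAR, 1.81) and Ppara (1.38). Nr1h2, which encodes LXR beta, had -0.16, and the median of these probes was 0.15. All 4 bile acid synthesis probes were called as higher in liver, with a median of 3.43, among them Baat (4.45), which conjugates bile acids.

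Among 16 probes of other ABC transporters, 4 were called as higher in liver and 1 as lower, with a median of 0.32. The higher ones were Abcb11 (the bile salt export pump, 3.15), Abcb4 (which exports phosphatidylcholine into bile, 2.77), Abcd3 (a peroxisomal fatty acid transporter, 2.14) and Abcc2 (a canalicular exporter of conjugates, 2.10). The lower one was Abcc1 (-1.12), a drug and glutathione conjugate exporter. Abca7, a close relative of Abca1, had 0.12. The ratio of Abca6 (2.52) thus lay between those of Abcd3 and Abcb4, while the other 5 member probes lay nearer 0 than any of these called transporters.

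Among cell type markers, 12 of 13 hepatocyte probes were called as higher in liver, with a median of 3.79, and 7 of 12 embryonic probes as lower, with a median of -2.09. Of 5 macrophage and Kupffer cell probes 1 was called as higher (Mpeg1, 1.78), of 5 stellate cell and fibroblast probes 3 as lower, and the 6 endothelial probes lay between -0.72 (Tek) and 0.75 (Flt4), under the size that a call needs. Of 8 oligodendrocyte and neuron probes, Mobp (1.15) was called as higher and Mbp (-1.85) as lower. The part of these cell types in the ratios of the Abca probes was not tested.

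Between females and males, Abca6 was the only member probe called. Females had a lowest, median and highest value over strains of 2.27, 2.55 and 3.07, against 2.04, 2.42 and 2.79 in males, so the groups overlapped widely. The difference was 0.22 ± 0.33 (log2 female minus male, SD over 17 strains), 1.17-fold, with an adjusted p of 0.0322 in limma with strain as a block, and females were higher in 13 of 17 strains. Over all probes 33.7% were called, 16.5% as higher in females and 17.2% as lower, so 1 call among 6 probes is no more than the background. The call was lost without BXD8 and BXD27 (0.18, adjusted p = 0.0518, limma), in the 13 strains with both orientations (0.20, adjusted p = 0.0551, limma), with liver in channel 1 only (0.06, adjusted p = 0.720), with run as a term (0.23, adjusted p = 0.195), with limma's trend and robust settings (adjusted p = 0.0507) and without BXD2, BXD19, BXD21 or BXD32 in turn.

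The 2 largest Abca6 differences with both orientations were in BXD19, with 3.07 in females and 2.28 in males, and in BXD2, where females exceeded males by 0.58. BXD27, with 1 array per sex and Y-linked genes against its labels, had 3.01 in females and 2.04 in males. BXD16 went the other way, with 2.39 in females and 2.73 in males.

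ABCA1 had no call over 17 strains but a split between sets of strains. Females had a lowest, median and highest value of -0.01, 0.67 and 1.34, against -0.05, 0.78 and 1.59 in males, and the difference was -0.16 ± 0.62 (SD, n = 17; adjusted p = 0.410, limma). In the 13 strains with both orientations, females were lower in 13 of 13, by -0.42 ± 0.38 (adjusted p = 0.00441, limma). In the 4 strains with liver in channel 1 only, females were higher in 4 of 4, by 0.67, with a range of 0.14 to 1.35. On channel 1 arrays alone, females were lower than males in most of the 13 strains too. Such arrays read 0.79 in females and 1.77 in males of BXD16, and 0.39 and 1.35 in BXD18. BXD19 went the other way, with 0.76 and 0.75. Why the sets of strains differed was not tested. Without BXD8 and BXD27 the difference was -0.33 (adjusted p = 0.0166, limma).

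The largest ABCA1 differences among those 13 strains were in BXD18, with -0.01 in females and 1.20 in males, and in BXD12, with 0.09 in females and 1.10 in males. Opposite to them were BXD27, with 1.30 in females and -0.05 in males, and BXD8, with 1.34 in females and 0.46 in males. The females of BXD2, BXD5, BXD12, BXD18, BXD19 and BXD28 came from 1 run of consecutively deposited arrays that held no male. There ABCA1 differed by -0.65, against -0.22 in the other 7 strains with both orientations. Abca6 differed by 0.32 in the former, with females higher in 6 of 6, and by 0.10 in the latter, with females higher in 4 of 7. Such runs are not a batch that the labels name. With run as a term the ABCA1 difference was 0.30 (adjusted p = 0.237, limma), the opposite sign.

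In the 5 runs that held both sexes, whose female and male strains were not always the same, the ABCA1 difference of array means was 0.17, -0.27, -0.20, 0.44 and 1.35. The last of these was BXD27 alone, and the run before it held strains with liver in channel 1 only. For Abca6 the differences in the same runs were 0.01, -0.03, 0.23, 0.06 and 0.97.

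Abca4 read higher in females in 15 of 17 strains without passing the test. Females had a lowest, median and highest value of -0.76, -0.26 and -0.04, against -0.71, -0.51 and 0.38 in males, and the difference was 0.16 ± 0.38 (SD, n = 17; adjusted p = 0.165, limma). One strain decided this: BXD27 had -0.76 in females and 0.38 in males, both the extreme of their sex. Without BXD27 the difference was 0.25 (adjusted p = 8.22e-04, limma), and in the 13 strains with both orientations it was 0.25 ± 0.20 (adjusted p = 0.00418, limma), with females higher in 12 of 13. With run as a term it was 0.04 (adjusted p = 0.861, limma). In the mixed runs it was 0.23, 0.07, 0.10, 0.23 and, in BXD27, -1.14.

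Abca1, Abca2 and Abca5 had no call over the 17 strains. Abca1 had -0.51, 0.16 and 0.63 in females (lowest, median, highest), against -0.17, 0.18 and 0.64 in males, a difference of -0.03 ± 0.34 (SD, n = 17; adjusted p = 0.824, limma). It was -0.09 without BXD8 and BXD27, -0.06 without the BXD11 array of contradictory title, and -0.24 in the 13 strains with liver in channel 2 only, where it was called (adjusted p = 0.0282, limma). Abca2 had 0.01, 0.44 and 1.02 in females, against -0.12, 0.41 and 0.90 in males, a difference of 0.05 ± 0.29 (adjusted p = 0.642, limma, n = 17). Abca5 had -0.32, -0.02 and 0.20 in females, against -0.43, -0.09 and 0.74 in males, a difference of -0.02 ± 0.28 (adjusted p = 0.856, limma, n = 17). In each of these the sexes overlapped over most of their range, and the sign differed between strains, with females higher in 9, 8 and 9 of 17.

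**Figure D2:**
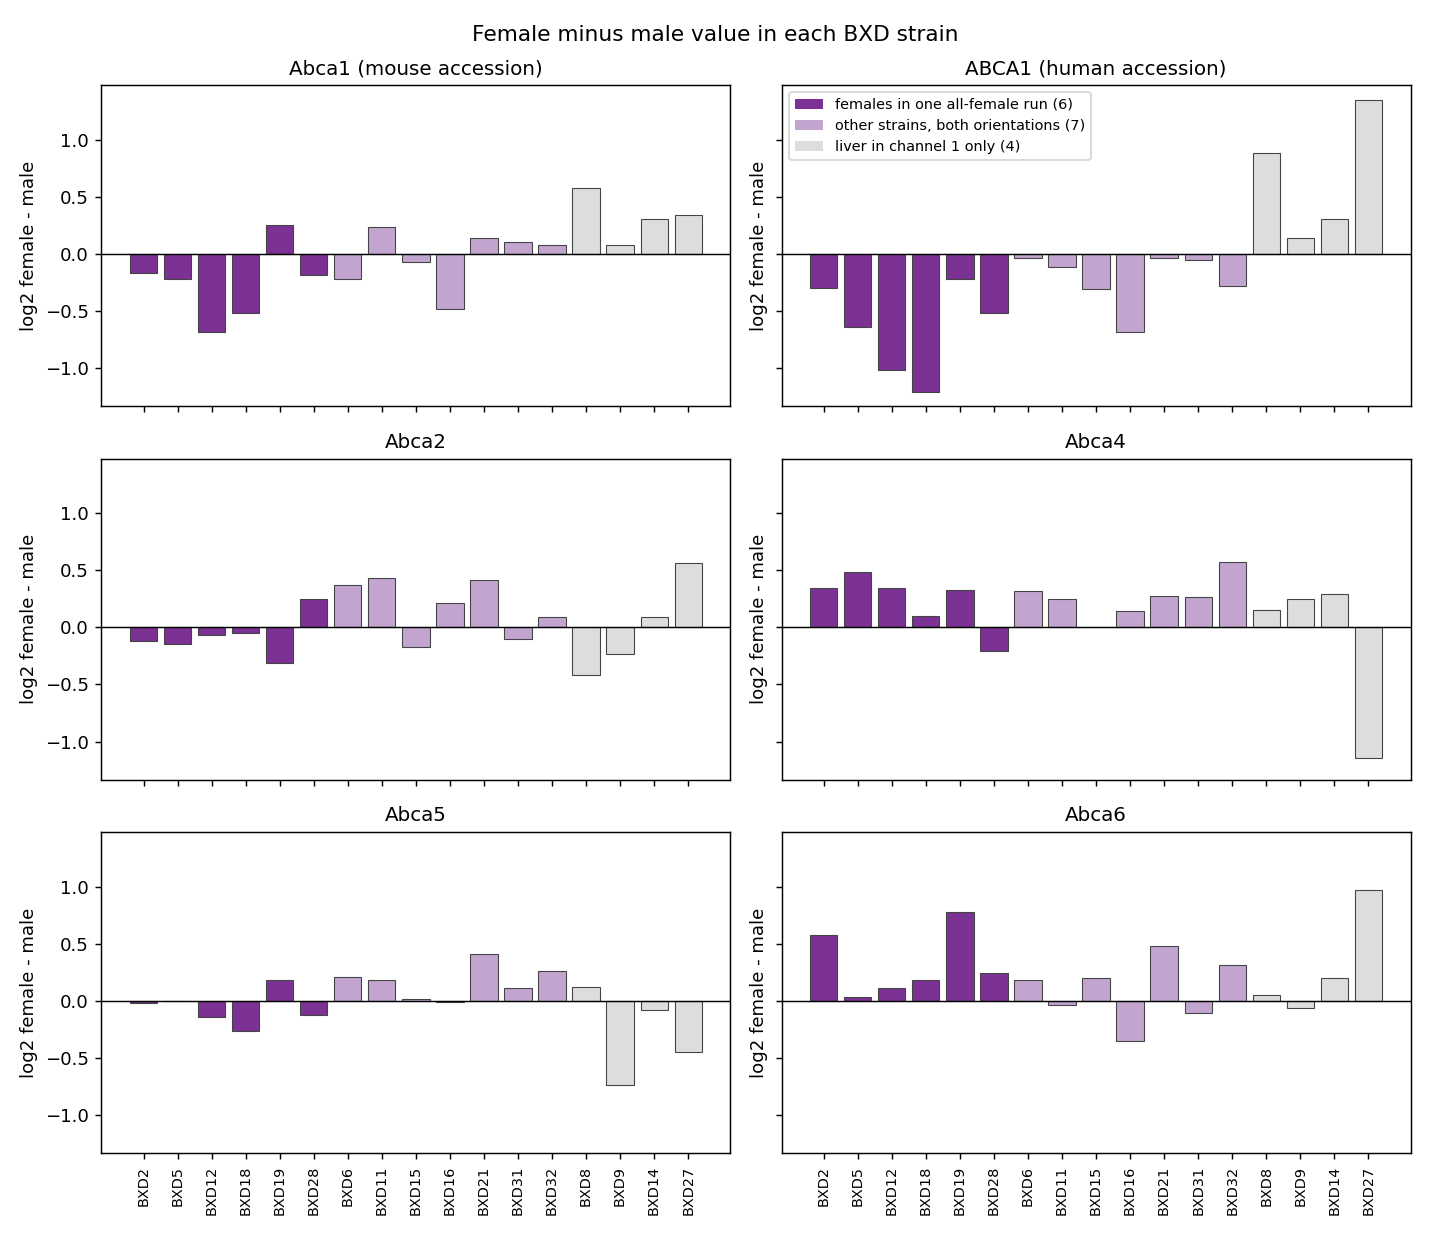
Female minus male value (log2, y axis) of each probe in 17 BXD strains (x axis), 1 bar per strain; dark bars are strains whose females came from 1 all-female run, light purple bars the other strains with both orientations, and grey bars strains with liver in channel 1 only. The ABCA1 bars are below 0 in all 13 purple strains and above 0 in all 4 grey ones, and BXD27 stands against the other strains for Abca4.

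Calls by sex in the other lists are to be read against the 33.7% of all probes called. Among the nuclear receptors, 2 of 9 were called, both as higher in females, Nr1h4 (0.34) and Pparg (0.33). Of 16 other ABC transporters, 3 were called as higher in females, Abcb1a (a drug exporter, 0.85), Abce1 (a ribosome recycling factor, 0.57) and Tap2 (a peptide transporter, 0.22), and 1 as lower, Abcg2 (a urate and drug exporter, -0.72). The 4 efflux and HDL probes had differences between -0.01 and 0.06, with adjusted p of 0.521 or more (limma). Some cell markers were called as well. Of 5 macrophage probes C1qb (0.37) and C1qa (0.35) were called as higher in females. The others were not called, Mpeg1 at 0.32 and, on the other side of 0, Cd5l at -0.18 and Marco at -0.10. Of 5 stellate cell probes Lum (0.27) and Lrat (0.26) were called as higher. Of 13 hepatocyte probes 5 were called as higher, and of 8 oligodendrocyte and neuron probes 6 as lower and 1 as higher. Their part in the Abca differences was not tested.

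Across the 13 strains with both orientations, none of the 6 probes passed the moderated F test with sex as a term (limma), against 262 probes or 1.19% of all. Abca2 alone of the 6 had an unadjusted p under 0.05, as 3018 of all probes did, with F = 2.54 and an adjusted p of 0.353 (limma). Abca1 followed with F = 2.39 (adjusted p = 0.376), then ABCA1 with 1.94 (adjusted p = 0.460), Abca6 with 1.20 (0.650), Abca4 with 1.09 (0.690) and Abca5 with 0.89 (0.768). The spread of strain means over the residual SD was 1.11 for Abca2, 1.04 for Abca1 and 0.92 for ABCA1, each above the median of 0.816 for all probes, and 0.76 for Abca4, 0.74 for Abca6 and 0.70 for Abca5, each below it.

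The highest strain exceeded the lowest by 1.89-fold for ABCA1 (BXD16 over BXD5), 1.57-fold for Abca2 (BXD15 over BXD18), 1.52-fold for Abca1 (BXD11 over BXD12), 1.42-fold for Abca6 (BXD2 over BXD12), 1.27-fold for Abca4 (BXD18 over BXD2) and 1.24-fold for Abca5 (BXD19 over BXD2), against a median of 1.42-fold for all probes. The largest gap between neighbours in the order of strains was 0.23 for ABCA1, against a residual SD of 0.27. For the other 5 probes too, the largest gap was smaller than the residual SD, so no strain stood apart from its neighbour by more than that SD. It is the spread of single values left after strain and sex terms, while the gaps are between means over both sexes.

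Single arrays set some of these extremes. For Abca1, BXD11 females had 1.83 on the array of contradictory title, against -0.21 and 0.29 on their other arrays, and without it the BXD11 mean was 0.18, with 4 of the 13 strains above it. BXD12 females had -1.34 with liver in channel 1 and 0.32 with liver in channel 2. For Abca2, BXD15 females had 1.15 in replicate 1 and 0.31 in replicate 2. Over 5 strain and sex groups with more than 1 replicate number, the pooled SD between replicates was 0.30 for Abca2 and between 0.08 and 0.13 for the other 5 probes.

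The strain means of the Abca1 and ABCA1 probes rose together. Both probes were read on the same arrays, so the permutation p does not separate strains from deviations shared by an array. Over 13 strain means, Pearson's r was 0.774 (permutation p = 0.00138, adjusted p = 0.0207 over the 15 pairs of member probes) and Spearman's rho was 0.731 (permutation p = 0.00617, adjusted p = 0.0925). BXD2, BXD11, BXD15 and BXD16 lay above the median of both probes and BXD5, BXD12, BXD18 and BXD31 below it. Without BXD11 and BXD16, the strains farthest from the Abca1 median, r was 0.63. The relation also ran within each sex, with r = 0.816 in females and 0.765 in males, and r was 0.740 with values centred on their run and 0.727 without the BXD11 array of contradictory title.

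**Figure D3:**
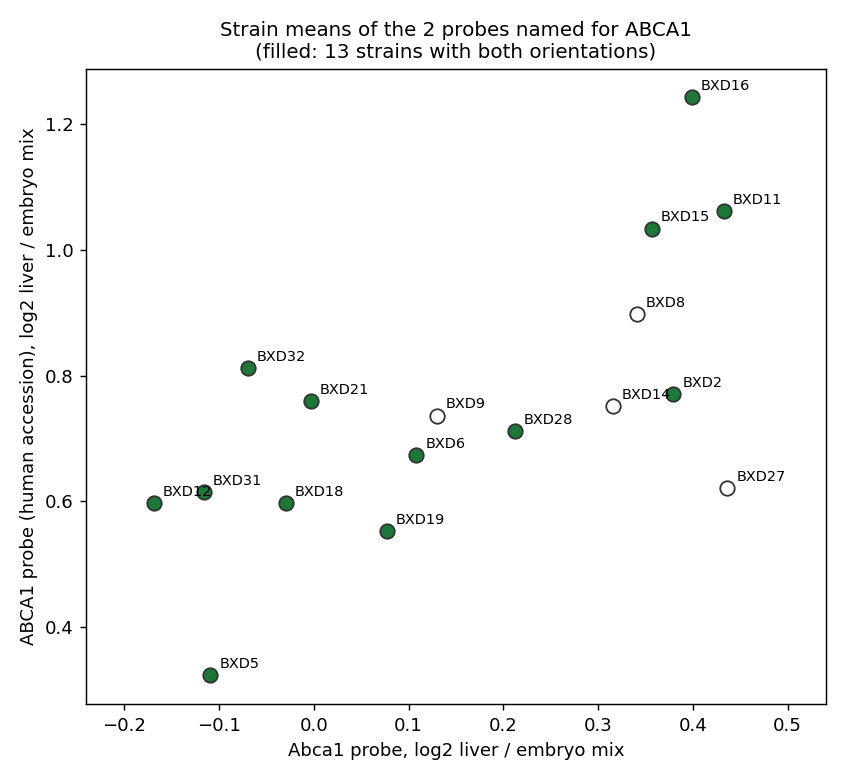
Strain means (log2 liver over embryo mix) of the ABCA1 probe (y axis) against the Abca1 probe (x axis), 1 point per BXD strain; filled points are the 13 strains with both orientations. BXD16, BXD11 and BXD15 lie at the upper right and BXD5 at the lower left.

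The relation of these probes was not shared by the other probes with a human accession. Of 8 such probes, 4 had a mouse probe of the same symbol, and over 26 values of strain and sex r was 0.794 for ABCA1 and Abca1 but 0.19 for SLC5A1, 0.04 for HEXA and -0.05 for OAT, each with its mouse probe. These points share arrays and give no test. In the same measure 29 of the other probes followed Abca1 more closely than ABCA1 did, and 19 followed ABCA1 more closely than Abca1 did. None of the other 14 pairs of member probes passed (adjusted p of 0.518 or more, permutation test). For the neighbours Abca5 and Abca6, r was 0.48 (permutation p = 0.0959), and 0.87 without BXD12 and BXD2.

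By likeness over the same 26 values, with each sex centred, the named probes most like Abca1 were Mgat1 (r = 0.858), Sec61a1 (0.833) and Sdc1 (0.819). For ABCA1 they were Serpina3n (0.860), Arf4 (0.840) and Pcbp1 (0.827). Those for Abca2 were Scly (0.770), Lgals9 (0.723) and Itch (0.719), and those for Abca4 were Skap2 (0.764), a (0.726, the nonagouti gene) and Rp9 (0.700). For Abca5, Cyth2 (0.769), Nup50 (0.707) and Mfng (0.699) came first, and for Abca6 Pccb (0.723) and Ngly1 (0.638) were among the first. The share of all probes with r over 0.5 was 7.06% for Abca1 and 7.14% for ABCA1 but 0.579% for Abca6. A high r was thus commoner for the Abca1 and ABCA1 probes than for Abca6. The genes named were picked from 3447 named probes, and all values come from shared arrays.

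In B6 liver against D2 liver, none of the 6 probes was called, against 39 probes or 0.178% of all (limma on 4 values, 1 per sex and replicate number). The 4 values are not alike in orientation. Replicate 1 of each sex was the mean of a forward and a swapped array, and replicate 2 was 1 swapped array, where a channel effect does not cancel. ABCA1 came closest. Its values were -0.11 and -0.19 in females and -0.38 and -0.38 in males (log2 B6 over D2), all below 0, with a mean of -0.27 ± 0.14 (SD, n = 4), which puts B6 at 0.832 of D2. Its unadjusted p was 0.0239, one of 2895 under 0.05, and its adjusted p 0.376 (limma). All 6 single arrays lay below 0 as well, as did the enriched ones at -0.18 (female) and -0.06 (male). With an orientation term the ABCA1 mean was -0.24.

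Abca1 had -0.17 and -0.20 in females and -0.21 and 0.01 in males, a mean of -0.14 ± 0.10 (SD, n = 4; adjusted p = 0.414, limma). Abca4 had -0.12 and 0.09 in females and 0.03 and -0.21 in males (mean -0.05 ± 0.14, adjusted p = 0.764, limma). Abca5 had -0.23 and -0.35 in females and -0.04 and 0.24 in males (mean -0.09 ± 0.26, adjusted p = 0.683, limma). Each of these had values on both sides of 0.

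Abca1, Abca2 and Abca6 read differently by the channel that held B6, with no overlap between the few arrays of each channel. How many of all probes did the same was not counted, so this sets none of them apart. Abca1 had -0.29 and -0.30 with B6 in channel 1, but -0.05, -0.20, -0.13 and 0.01 with B6 in channel 2, and its mean was -0.19 with an orientation term. Abca2 had -0.28 and -0.13 with B6 in channel 1, but -0.04, 0.23, 0.46 and 0.77 with B6 in channel 2, and the enriched arrays, with B6 in channel 2, had 0.38 and 0.50. Its 4 values averaged 0.25 ± 0.38 (SD; adjusted p = 0.453, limma), and 0.08 with an orientation term. Abca6 had 0.44 and 0.86 with B6 in channel 1, but -0.28, 0.01, 0.00 and -0.39 with B6 in channel 2. It averaged 0.03 ± 0.34 (SD, n = 4; adjusted p = 0.912, limma), and 0.24 with an orientation term. The direction of these arrays rests on the same reading of the channels, since forward and swapped arrays correlated at only 0.133 in females and -0.02 in males after turning. Arrays of the same orientation correlated at 0.337 to 0.627.

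**Figure D4:**
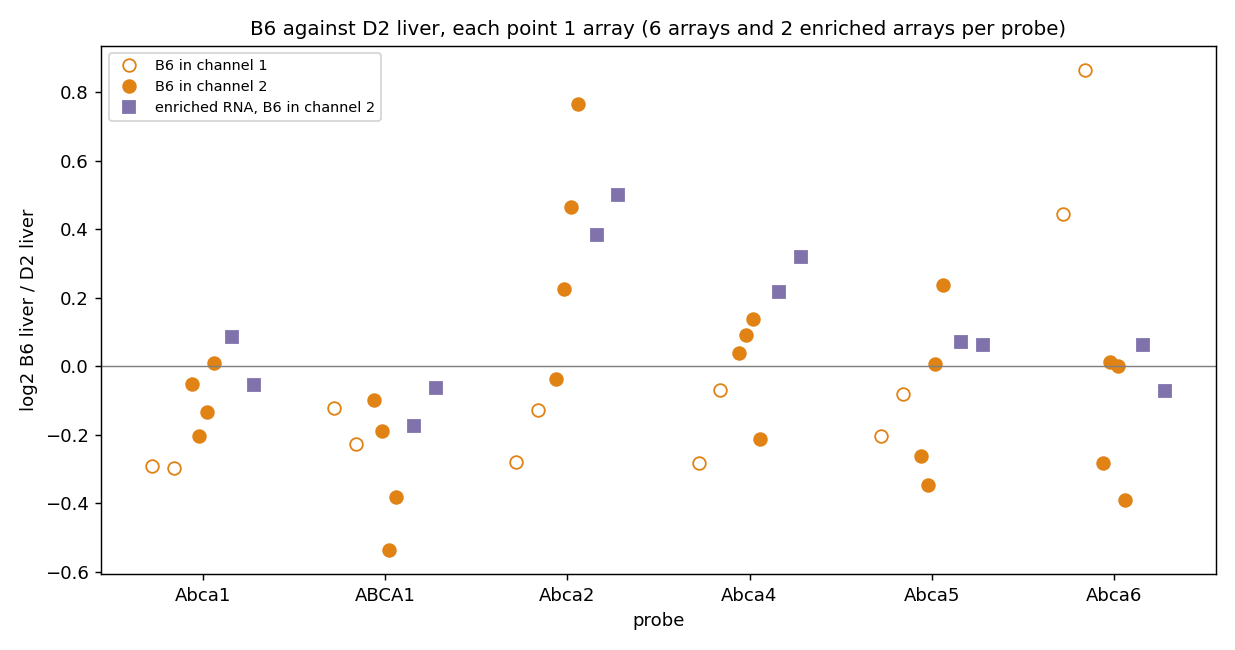
Log2 ratio of B6 liver over D2 liver (y axis) for the 6 probes (x axis), 1 point per array; open circles have B6 in channel 1, filled circles B6 in channel 2, and squares are enriched RNA. ABCA1 lies below 0 on every array. For Abca1, Abca2 and Abca6 open and filled circles do not overlap, which was not counted over all probes.

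In the test of the B6 over D2 ratio between the sexes no member probe was called, with adjusted p between 0.661 (Abca5) and 0.984 (Abca6), and over all probes limma called 0 at an adjusted p under 0.05, with 1675 at an unadjusted p under 0.05. Abca5 had the lowest unadjusted p of the 6 (0.074), from values of -0.23 and -0.35 in females and -0.04 and 0.24 in males. Among the listed genes, Lpin1, a phosphatidate phosphatase of triglyceride synthesis, was the 1 call of 6 synthesis and uptake probes, higher in B6 (2.25 ± 0.21, adjusted p = 0.00705, limma, n = 4). The lists of efflux, nuclear receptor, bile acid and other ABC probes had 0 calls in limma. At an unadjusted p under 0.05 they had 2 of 4, 1 of 9, 0 of 4 and 4 of 16. Over all probes it was 2895 of 21936, and among hepatocyte markers 9 of 13, so these counts set no list of lipid transport apart. Among strains, the only call in the lists of lipid genes and ABC transporters was the nuclear receptor coactivator Ppargc1a (adjusted p = 0.00474, limma). Of the hepatocyte markers, Cyp2c29 was called (adjusted p = 0.0495, limma).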

How the data were processed

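Each array has 1 deposited ratio per probe. These were read as log10 ratios made by the authors, since 94 of them equal 2 or -2 exactly (100-fold), and were multiplied to log2. No label or header states the base, scanner, software or normalization. Both channels carry the same dye label, so direction was read as channel 2 over channel 1, under which hepatocyte markers exceed embryonic ones; it is likely, not stated. Arrays of opposite orientation correlated between -0.895 and -0.556 over 32 pairs and were turned. No intensities were analysed. The number of arrays limits the precision, as do the channel and the spread between arrays.

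Names came from the platform table (3290 probes with 1 symbol, 4 with several), and 170 more by accession from a RefSeq table (GRCm38.p6); 18476 had none. Arrays were averaged within replicate and orientation, then over orientations. Tests used limma 3.58.1 in R 4.3.3 with Benjamini-Hochberg adjustment at 0.05 over 21936 probes: liver on 13 strain means against 0 (also an absolute log2 of 1), sex on 34 values with strain as a block, strains by moderated F on 26 values with sex, B6 against D2 on 4 values. The fits were also run on simulated independent normal values. These held no shared array, channel or run effect, so they give no check on such effects. Correlations used 100000 permutations, two-sided (Python 3.11.15, scipy 1.17.1). Sequences are RefSeq's.

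All member probes are described in every comparison, list genes by name where called with the largest changes (up to 4 per direction), or where a result turns on them (chosen after their values were seen), and for likeness the 3 probes of highest r, of which 1 is not reported here. Members and lists were chosen with earlier results of these data known. In the 4 B6 and D2 values, replicate numbers 1 and 2 recur in both sexes, and same-numbered values deviated together (r = 0.325 over probes). In both sexes replicate 1 averaged both orientations and replicate 2 was swapped only, so same-numbered values share any channel effect. This r therefore cannot show pairing, and 2 numbers are too few for it.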

Additional observations from a re-analysis of the deposited data

How the results depend on the processing

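Liver ratios kept their sign in all 6 probes under every alternative run, with Abca6 between 2.42 and 2.62, ABCA1 between 0.54 and 0.96 and Abca1 between 0.05 and 0.18. Without the size threshold 18404 probes passed in place of 3040, and with strains left out in turn 2991 to 3097. No member probe was called between strains or between B6 and D2 under any alternative. The strain count of 262 became 5595 with all 17 strains, 164 and 100 with liver in channel 1 or 2 only, 73 with no sex term, and 139 to 276 with strains left out. The sex count of 7392 became 0 in the 4 strains with liver in channel 1 only, 4697 with run as a term, and 6613 to 8152 with strains left out. The B6 and D2 count of 39 became 25 in pairs, 276 with an orientation term, 74 scaled, 24 with quantile normalization, 0 with trend and robust settings, 510 with enriched arrays, and 0 to 29 leaving out values in turn. The replicate block gave 9. With an orientation term 82 probes differed by sex in that contrast.

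Signs of sex differences turned in several settings. In the 4 strains with liver in channel 1 only these were Abca1 (0.32), ABCA1 (0.67), Abca2 (-0.000582) and Abca4 (-0.112), and with run as a term Abca1 (0.17), ABCA1 (0.30) and Abca2 (-0.00478). Abca1 turned with channel 1 only (0.0536), with scaling (0.0129) and without BXD12, BXD16 or BXD18 (-0.0655 to 0.0136 over all strains left out). Abca5 turned in the 13 strains (0.0629, or 0.0603 and 0.0656 by channel), without BXD8 and BXD27 (0.000338), and without BXD9 or BXD27 (-0.0458 to 0.0254 over all strains left out). Abca6 reached -0.00644 with channel 1 only in the 13 strains. In B6 against D2, Abca4 turned with enriched arrays (0.0548) and without male replicate 2 (0.00103), and Abca6 without male replicate 1 (-0.10). Their sex difference turned for Abca6 when scaled (-0.0455), with quantile normalization (-0.10) and with an orientation term (-0.10; Abca4 -0.00254). Orientation in the 13 strains, BXD8 and BXD27, and runs for the correlation were alternatives added after seeing the data. The cause of these changes was not tested.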

Other observations

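The human-accession probe for APOE, an apolipoprotein made by liver, had a log2 ratio of liver over the embryo mix of 2.66, and no mouse probe of that symbol was named. The other human-accession probes with a mouse partner differed from it in liver ratio without a common direction: OAT had 0.10 against 1.42 for Oat, HEXA -0.40 against 0.64 for Hexa, and SLC5A1 0.02 against -0.37 for Slc5a1.

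Cyp7b1, an oxysterol hydroxylase, had the largest sex difference of the lipid lists (-2.53 log2 female minus male, SD 0.78, 17 strains; adjusted p = 2.37e-08, limma). Cyp8b1, which sets the cholic acid share of bile, was lower in females as well (-0.53, adjusted p = 0.00293, limma), while Baat (0.30) and Slc27a5 (0.17), which conjugate and activate bile acids, were called as higher in females.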
